A study of Homo sapiens with 18 samples.

Results

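Messenger RNA of 10 SR protein genes (SRSF1, SRSF2, SRSF3, SRSF4, SRSF5, SRSF6, SRSF7, SRSF9, SRSF10 and SRSF11) was followed in 18 libraries made from A549, an established line of human lung adenocarcinoma. The genes were taken by symbol from a count table of 44016 features, all 10 were present, and all 10 passed the filter on low counts. There were 6 groups of 3 libraries. Wild-type (WT) cells and a line with a stable knockdown (KD) of S100A16 were each sampled untreated and after 2 h in 100 µM hydrogen peroxide (H2O2). Stable KD lines of hnRNPM and of MagoHB were sampled untreated. The controls of all 3 knockdowns were WT cells rather than a line carrying only a vector. The sources used here do not give the knockdown reagent or the number of clones behind each line. The labels call the replicates biological without saying what separated them, so p-values measure the spread between these libraries. The spread of each gene was pooled over the 6 groups, so p-values and intervals do not measure that of the compared groups alone. The series title asks about S100A16, splicing and oxidative stress. Counts are per gene, so splice isoforms of the SR genes were not analysed here.

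SR proteins are splicing factors with RNA-recognition motifs at one end and a domain rich in arginine and serine (RS) at the other. They bind enhancer sequences in exons and help U1 snRNP and U2AF to recognise the neighbouring splice sites, and several also take part in mRNA export and translation. SRPK and CLK kinases phosphorylate the RS domain, and transportin 3 carries the phosphorylated proteins into the nucleus. Many SR genes limit their own output through alternative exons that make the transcript a substrate of nonsense-mediated decay. In the GENCODE 29 annotation all 10 genes had at least 1 transcript of that decay class, as did 35.6% of 19969 protein-coding genes.

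The promoters of SRSF7, SRSF3, SRSF4 and SRSF6 are shown, chosen after their values were seen: of the 10 genes SRSF7 fell furthest in the S100A16 KD, SRSF4 fell furthest in the MagoHB KD, SRSF6 rose, and SRSF3 is another gene that fell and, like SRSF7, has a TATA motif in this window. Each is the 250 bases before the start, 5′ to 3′ on the gene's strand, from RefSeq (GRCh38.p14), with motifs found by exact match on both strands in capitals. SRSF7 is on the minus strand (chr2:38751362-38751611, the second of its 2 RefSeq starts), SRSF3 on the plus strand (chr6:36594112-36594361), SRSF4 on the minus strand (chr1:29181901-29182150) and SRSF6 on the plus strand (chr20:43457646-43457895).
SRSF7: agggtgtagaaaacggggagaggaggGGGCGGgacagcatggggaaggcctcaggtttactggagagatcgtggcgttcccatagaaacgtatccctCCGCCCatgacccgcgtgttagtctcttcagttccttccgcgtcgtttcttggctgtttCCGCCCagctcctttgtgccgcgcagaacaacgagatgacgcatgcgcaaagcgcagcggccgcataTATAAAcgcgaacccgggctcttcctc
SRSF3: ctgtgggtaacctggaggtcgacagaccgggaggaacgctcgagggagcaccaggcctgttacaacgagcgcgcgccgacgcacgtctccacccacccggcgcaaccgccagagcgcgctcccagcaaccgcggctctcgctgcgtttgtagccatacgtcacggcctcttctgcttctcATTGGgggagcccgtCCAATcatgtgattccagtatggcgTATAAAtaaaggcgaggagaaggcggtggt
SRSF4: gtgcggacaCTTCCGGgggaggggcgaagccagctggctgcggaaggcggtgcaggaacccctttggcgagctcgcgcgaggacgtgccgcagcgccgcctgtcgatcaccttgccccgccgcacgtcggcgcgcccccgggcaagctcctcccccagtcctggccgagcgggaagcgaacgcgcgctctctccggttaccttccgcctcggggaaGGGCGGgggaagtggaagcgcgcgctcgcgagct
SRSF6: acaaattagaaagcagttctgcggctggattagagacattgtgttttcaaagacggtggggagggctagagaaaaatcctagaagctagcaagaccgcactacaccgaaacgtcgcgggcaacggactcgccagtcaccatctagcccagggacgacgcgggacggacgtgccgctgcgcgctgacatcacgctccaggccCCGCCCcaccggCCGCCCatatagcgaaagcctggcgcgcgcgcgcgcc
The capitals in SRSF7 mark a TATA box 27 bases before the start and GC boxes further upstream. SRSF3 has a TATA box 30 bases before its start and CCAAT boxes at 55 and 70. SRSF4 has an ETS motif and a GC box, and SRSF6 has GC boxes at 37 and 49 and no TATA box. The TATA motif (TATAAA) stood in 10.7% of 35116 RefSeq promoters of this length, CCAAT in 32.0%, the GC box GGGCGG in 42.6% and the ETS motif CCGGAAG in 8.52%. The 9 SR genes with a promoter in the table had 11 promoters there. TATAAA stood in 3 of the 11 (SRSF3, SRSF7 and SRSF11) and CCAAT in 1 (SRSF3). GGGCGG stood in 4 (SRSF4, SRSF6 and SRSF7) and CCGGAAG in 2 (SRSF4 and SRSF5). The SRSF11 match to TATAAA lay 206 bases before the start on the opposite strand. SRSF7 and SRSF11 each had another start without TATAAA in its window. CACGTG, TGACGTCA, and TTTCGCGC or TTTGGCGC stood in none of the 9, and in 6.34%, 1.65% and 0.968% of all promoters. These matches are letters in a window and were not tested as binding sites.

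Library totals ran from 36612997 to 51406431 counts, and each SR gene had between 1779 and 31926 counts per library. The targeted mRNA was lowest in its own knockdown, at 7.11% of untreated WT for S100A16 (5.85% with H2O2), 20.8% for HNRNPM and 34.8% for MAGOHB. S100A16 also stood at 51.1% in the MagoHB KD, and MAGOHB at 44.4% in the hnRNPM KD and 65% in the untreated S100A16 KD. HNRNPM stood at 67.5% in the untreated S100A16 KD and 80.4% in the MagoHB KD, both called lower. MagoHB KD 2, hnRNPM KD 3 and the untreated S100A16 KD 1 stood apart from their replicates: in a chi-square test of counts, the statistic per degree of freedom was 30.08 to 65.6 in pairs with them, against 3.095 to 5.598 for all other pairs. Of 5 epithelial markers 4 exceeded 5 CPM (counts scaled to library size by TMM) in some library, as did 4 of 6 fibroblast and 1 of 5 leukocyte markers. All 4 endothelial markers were under 1 CPM in all libraries, and no marker list had a gene at 0 throughout. The epithelial sum was 4610 to 5100 CPM in untreated WT, 7260 to 7750 in the untreated S100A16 KD, 6740 to 7050 in the hnRNPM KD and 4410 to 4470 in the MagoHB KD. The sum of 6 fibroblast markers was, in the same order, 86.6 to 117, 50.2 to 58.1, 74.7 to 90.6 and 48.5 to 77.1 CPM, and that of 5 leukocyte markers 2.85 to 3.51, 8.1 to 8.2, 3.61 to 4.41 and 4.48 to 7.52 CPM. With H2O2, WT and S100A16 KD sums were 4990 to 5340 and 8280 to 8780 CPM for epithelial, 90.2 to 92.9 and 48.2 to 55.9 CPM for fibroblast, and 3.31 to 3.68 and 7.23 to 7.59 CPM for leukocyte markers. KRT8 and KRT18 held most of the epithelial sum (means of 3472 and 1388 CPM in untreated WT). Mean CDH1 was 49.3 CPM in untreated WT, and 97.0, 18.4 and 42.9 CPM in the untreated S100A16, hnRNPM and MagoHB KDs. EPCAM was at 5.00, 5.49, 5.04 and 2.82 CPM in that order. ITGAM, the leukocyte marker above 5 CPM, was at 2.14, 7.03, 2.57 and 5.71 CPM. The mitochondrial share of counts was lower in the S100A16 and MagoHB KDs (7.26% to 7.86%) than in WT or the hnRNPM KD (9.22% to 10.6%). The part of these differences in the results was not tested.

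Per length, SRSF1 was the most abundant SR mRNA, at a mean of 108.78 RPKM (reads scaled to exon length and library total) over the 18 libraries. SRSF1 is the founding member of the family, a general splicing activator with paired RNA-recognition motifs. SRSF5 (67.1 RPKM) and SRSF11 (66.0 RPKM) followed, then SRSF7 (46.3), SRSF4 (41.4), SRSF6 (34.7) and SRSF9 (33.6). SRSF3 (28.2), SRSF10 (20.2) and SRSF2 (18.2) were lowest in RPKM. SRSF1 did not overlap SRSF5 in any library (87.7 to 131 and 55.7 to 76.8 RPKM), and SRSF11 did not overlap SRSF7 (58.9 to 76.8 and 34.0 to 58.6 RPKM), whereas the other pairs of neighbours in this order had overlapping ranges over the 18 libraries. Summed over the 10 genes, untreated WT libraries held 2942 ± 38.9 CPM of SR mRNA, and WT libraries with H2O2 held 3017 ± 42.8 CPM (SD, n = 3). In the S100A16 KD the sum was 2143 ± 24.8 CPM untreated and 2351 ± 37.5 CPM with H2O2, and no KD library reached a WT library. For the hnRNPM KD it was 2616 ± 268 CPM and for the MagoHB KD 2548 ± 259 CPM, with the library that stood apart lowest in each group. In RPKM, which is not scaled by TMM, the sum was 485 ± 2.31 in untreated WT, 412 ± 3.89 in untreated S100A16 KD cells, 460 ± 38.0 after hnRNPM knockdown and 487 ± 42.1 after MagoHB knockdown, so the MagoHB KD was not below WT on that scale.

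The make-up of the SR pool also differed between groups. SRSF6 made up 5.60% ± 0.170 of the summed RPKM in untreated WT and 9.49% ± 0.359 in the untreated S100A16 KD (SD, n = 3), with 8.26% ± 0.619 after hnRNPM knockdown and 6.98% ± 0.388 after MagoHB knockdown. SRSF7 made up 10.5% ± 0.344 in untreated WT and 8.49% ± 0.271 in the untreated S100A16 KD. SRSF4 made up 9.85% ± 0.0583 in untreated WT and 7.30% ± 0.185 in the MagoHB KD. These shares do not depend on how libraries are scaled to each other.

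**Figure D1:**
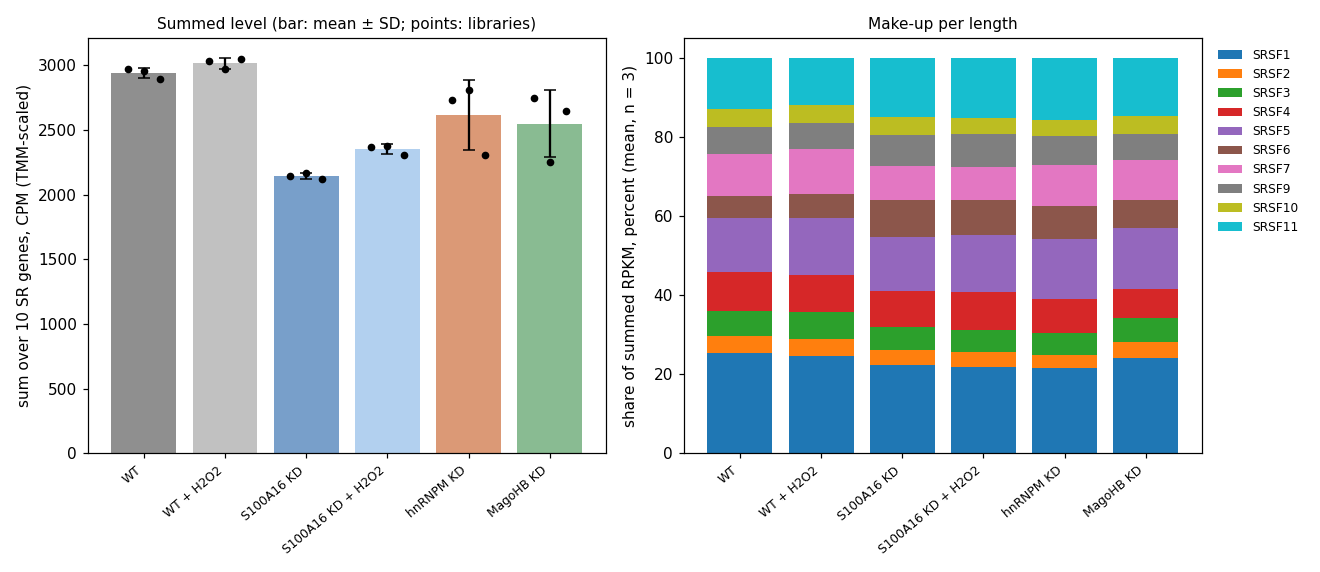
Left, the summed CPM of the 10 SR genes in each of 6 groups (bars, mean ± SD of 3 libraries; points, libraries). Right, each gene's mean share of the summed RPKM, in percent. The S100A16 KD sums, 2143 and 2351 CPM, lie below the WT sums, and the SRSF6 share is 9.49% in the untreated S100A16 KD against 5.60% in WT.

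In untreated cells, 9 of the 10 SR mRNAs were lower in the S100A16 KD than in WT and SRSF6 alone of the 10 was higher. All 10 were called (edgeR quasi-likelihood F test, Benjamini-Hochberg adjusted p under 0.05 over 22382 genes), and 52.3% of all genes were called in that comparison, 24.8% as lower and 27.6% as higher. The median log2 fold change of the 10 was -0.56, and that of all genes was 0.06. The 10 changes were called in every fit that left out 1 library. SRSF7, SRSF1, SRSF2, SRSF3, SRSF4 and SRSF10 fell by 0.52 to 0.78 on the log2 scale, SRSF5 by 0.46, and SRSF9 and SRSF11 by under 0.3. These libraries are from bulk cells, in which fewer cells of one type and less RNA per cell cannot be told apart.

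SRSF7 (GRCh38 chromosome 2, 38743599 to 38751494), a shuttling SR protein with a zinc knuckle that serves as an mRNA export adaptor, stood at 220, 234 and 223 CPM in untreated WT and at 134, 127 and 132 CPM in the untreated S100A16 KD. With H2O2 it stood at 260, 242 and 255 CPM in WT and at 141, 149 and 135 CPM in the KD. No KD library came near a WT library in either condition. The log2 fold change of SRSF7 was -0.78 without H2O2 (SE 0.127, adjusted p = 7.34e-05) and -0.83 with it (SE 0.127, adjusted p = 4e-05, edgeR). In the hnRNPM KD SRSF7 stood at 216, 216 and 155 CPM, and in the MagoHB KD at 215, 147 and 213 CPM. The low value in each was the library that stood apart, and neither difference from WT was called: -0.21 (95% interval -0.47 to 0.06) for the hnRNPM KD and -0.23 (-0.50 to 0.04) for the MagoHB KD. The SRSF7 level differed between knockdowns, at -0.58 for S100A16 against hnRNPM (interval -0.85 to -0.31) and -0.55 for S100A16 against MagoHB (-0.82 to -0.28), both called.

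SRSF6 moved the other way. It is an SR protein with paired RNA-recognition motifs, close in structure to SRSF4 and SRSF5. SRSF6 (chromosome 20, 43457928 to 43464247) stood at 140, 132 and 137 CPM in untreated WT, at 160, 173 and 166 CPM in the untreated S100A16 KD and at 173, 187 and 168 CPM in the hnRNPM KD. Every library of these knockdowns was above every untreated WT library. SRSF6 was called higher in both, at 0.29 (SE 0.0617, adjusted p = 0.000482) and 0.37 (SE 0.0617, adjusted p = 3.95e-05, edgeR). In the MagoHB KD it stood at 156, 136 and 150 CPM, which overlapped WT, and its log2 fold change of 0.11 was not called (adjusted p = 0.151). Without MagoHB KD 2, the library at 136 CPM, that change was 0.16 and was called (edgeR adjusted p = 0.0262). With H2O2, SRSF6 stood at 157, 143 and 160 CPM in WT and at 170, 171 and 173 CPM in the S100A16 KD, a difference of 0.16 (adjusted p = 0.0376, edgeR). Of the 6 fits that each left out 1 of those libraries, 1 kept this call, and RLE scaling (adjusted p = 0.0799) and DESeq2 (adjusted p = 0.0779) ended it.

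**Figure D2:**
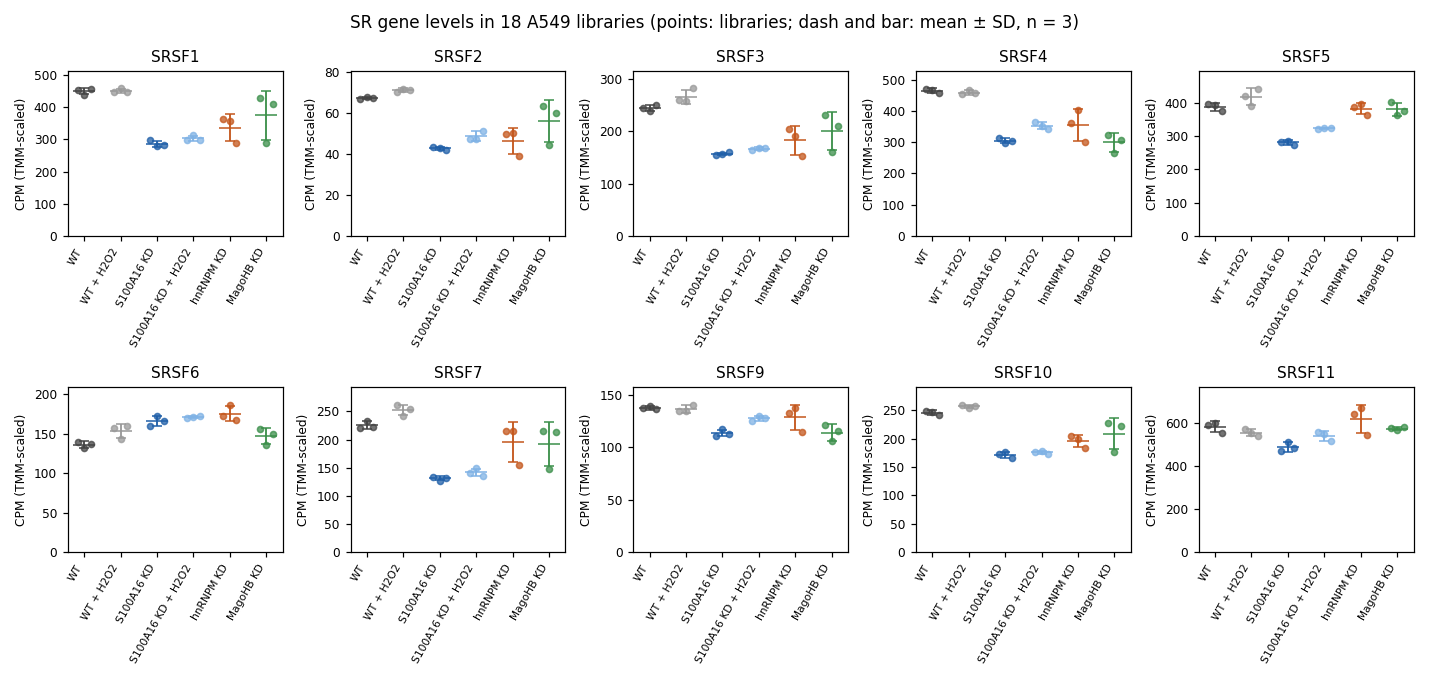
Level of each of the 10 SR genes in CPM (TMM-scaled) in the 18 libraries, by group; points are libraries, and the dash and bar are the mean ± SD of 3. SRSF6 is lowest in untreated WT, whereas SRSF7 is lowest in the untreated S100A16 KD (127 to 134 CPM); hnRNPM KD 3 and MagoHB KD 2 are the low points of their groups for SRSF1, SRSF2, SRSF3 and SRSF7.

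SRSF1 (chromosome 17, 58003360 to 58007346) stood at 452, 438 and 456 CPM in untreated WT and at 298, 279 and 283 CPM in the untreated S100A16 KD, with no overlap. SRSF1 was at 362, 358 and 288 CPM after hnRNPM knockdown and at 427, 288 and 411 CPM after MagoHB knockdown. All 6 of these libraries were below untreated WT, but only hnRNPM KD 3 and MagoHB KD 2 were as low as the S100A16 KD. The log2 fold change of SRSF1 was -0.65 in the S100A16 KD (SE 0.108, adjusted p = 5.85e-05) and -0.42 in the hnRNPM KD (SE 0.107, adjusted p = 0.00345). In the MagoHB KD it was -0.26 (SE 0.107) and was not called (edgeR adjusted p = 0.057), and it was -0.10 without MagoHB KD 2 (adjusted p = 0.251). Other genes share 23.1% of the exon bases of SRSF1 (771 bases), so its counts are uncertain.

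SRSF4 (chromosome 1, 29147743 to 29181987), a large SR protein with a long RS domain, stood at 470, 467 and 457 CPM in untreated WT and at 323, 267 and 307 CPM in the MagoHB KD. In untreated cells with the S100A16 KD it stood at 313, 299 and 302 CPM, and in hnRNPM KD cells at 360, 403 and 299 CPM. All 9 knockdown libraries were below all 3 WT libraries. SRSF4 had the largest fall of the 10 genes in the MagoHB KD, -0.64 (SE 0.0802, adjusted p = 1.25e-06), next to -0.61 in the S100A16 KD (adjusted p = 1.48e-06) and -0.39 in the hnRNPM KD (adjusted p = 0.000314, edgeR). The fall in the MagoHB KD was -0.56 without MagoHB KD 2, and -0.43 by total counts without TMM, and was called in both. SRSF4 in the S100A16 KD did not differ detectably from the MagoHB KD (0.03, interval -0.14 to 0.19).

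SRSF2 (chromosome 17, 76734115 to 76737374), a nuclear SR protein that marks splicing speckles, was at 67.0 to 67.9 CPM in untreated WT and at 42.2 to 43.4 CPM in the untreated S100A16 KD. It was at 49.7, 50.1 and 38.9 CPM in the hnRNPM KD, where it fell furthest of the 10 genes (-0.55, SE 0.101, edgeR adjusted p = 0.000158), and at 63.6, 44.5 and 60.3 CPM in the MagoHB KD. SRSF2 in the hnRNPM KD was below the MagoHB KD by -0.28 (interval -0.49 to -0.07), although the 2 groups overlapped. Of its exon bases, 36.7% (1106 bases) are shared with MFSD11 on the other strand, so counts of SRSF2 are uncertain. SRSF3 (chromosome 6, 36594353 to 36605600), a small SR protein and export adaptor, was at 240 to 250 CPM in untreated WT, 156 to 160 CPM in the untreated S100A16 KD, 153 to 205 CPM after hnRNPM knockdown and 160 to 232 CPM after MagoHB knockdown. Its log2 fold changes were -0.64, -0.42 and -0.29, all called. Of 6 fits that each left out 1 library, 2 kept the call of SRSF3 in the MagoHB KD. SRSF10 (chromosome 1, 23964804 to 23980927), which acts as a splicing repressor when dephosphorylated, was at 241 to 250 CPM in untreated WT and at 166 to 176, 184 to 205 and 177 to 228 CPM in the S100A16, hnRNPM and MagoHB KDs. Its log2 fold changes of -0.52, -0.32 and -0.23 were called, and no knockdown library reached WT.

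SRSF5, SRSF9 and SRSF11 each overlapped untreated WT in at least 1 knockdown, as SRSF6 did in the MagoHB KD. SRSF5 (chromosome 14, 69726900 to 69772005), an SR protein with paired RNA-recognition motifs, stood at 395, 392 and 373 CPM in untreated WT, at 281, 286 and 274 CPM in the untreated S100A16 KD, at 386, 395 and 364 CPM after hnRNPM knockdown and at 401, 364 and 375 CPM after MagoHB knockdown. Its fall of 0.46 on the log2 scale in the S100A16 KD was called (adjusted p = 5.6e-07, edgeR), while the intervals in the other knockdowns were -0.14 to 0.10 and -0.14 to 0.09. SRSF5 was lower in the S100A16 KD than in the hnRNPM KD (-0.44, interval -0.56 to -0.33) and the MagoHB KD (-0.44, interval -0.56 to -0.32). SRSF9 (chromosome 12, 120461668 to 120469793), whose RS domain is short, was at 136 to 139 CPM in untreated WT, 111 to 117 CPM in the untreated S100A16 KD and 106 to 121 CPM in the MagoHB KD (-0.28 and -0.27, both called). In the hnRNPM KD it was at 115 to 138 CPM and overlapped WT. Of its exon bases, 46.2% (1729 bases) are shared with GATC on the other strand, so counts of SRSF9 are uncertain. SRSF11 (chromosome 1, 70205682 to 70253052), an SR-related protein of the spliceosome, was at 556 to 602 CPM in untreated WT and 471 to 513 CPM in the untreated S100A16 KD (-0.26, edgeR adjusted p = 0.00242). After hnRNPM knockdown it was at 544 to 671 CPM and after MagoHB knockdown at 566 to 579 CPM, both overlapping WT.

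Set side by side, the hnRNPM KD had 5 SR genes called lower (SRSF1, SRSF2, SRSF3, SRSF4 and SRSF10) and SRSF6 called higher, where 49.1% of all genes were called (23.8% lower, 25.4% higher). The MagoHB KD had 5 called lower (SRSF2, SRSF3, SRSF4, SRSF9 and SRSF10) and 0 higher, where 45.5% of all genes were called (22.3% lower, 23.3% higher). The 6 and 5 of 10 called in either direction are near those shares of all genes called. The members' median log2 fold changes were -0.27 and -0.25, next to 0.02 and 0.04 for all genes. These comparisons and that of the S100A16 KD share the untreated WT libraries. Without MagoHB KD 2, 3 SR genes were called in the MagoHB KD: SRSF4 (-0.56) and SRSF9 (-0.22) lower and SRSF6 higher, while SRSF2 (-0.12), SRSF3 (-0.15) and SRSF10 (-0.13) were not. In that fit 39.2% of all genes were called. Leaving out WT 1, WT 2 or WT 3 also left 3 called, where 38.7% to 38.9% of all genes were called. Without hnRNPM KD 3, the falls of SRSF1, SRSF2, SRSF3, SRSF4 and SRSF10 in the hnRNPM KD ranged from -0.28 to -0.44 and stayed called, and SRSF11 was called higher (0.17, edgeR adjusted p = 0.0205). With S100A16 KD 1, hnRNPM KD 3 and MagoHB KD 2 all left out, 10, 7 and 7 SR genes were called against untreated WT in the S100A16, hnRNPM and MagoHB KDs, where 55.4%, 50.9% and 44.7% of all genes were called.

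How libraries are scaled bears on these directions. Against WT, total counts without TMM shifted the log2 change of the median gene upward by 0.237 for the S100A16 KD (0.184 with H2O2), 0.114 for hnRNPM and 0.21 for MagoHB knockdown. The share of called genes that were higher moved, in the same order, from 52.7% to 74%, 53.1% to 70%, 51.6% to 63.1% and 51.1% to 74.7%. On that scale 7 SR genes were called lower and SRSF6 higher in the untreated S100A16 KD, where SRSF9 (-0.04) and SRSF11 (-0.02) were not called. In the hnRNPM KD 5 were lower, and SRSF6 and SRSF11 higher. In the MagoHB KD SRSF4 was called lower, and SRSF5, SRSF6 and SRSF11 higher. Total counts called 55.6%, 50% and 49.2% of all genes in these 3 comparisons.

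**Figure D3:**
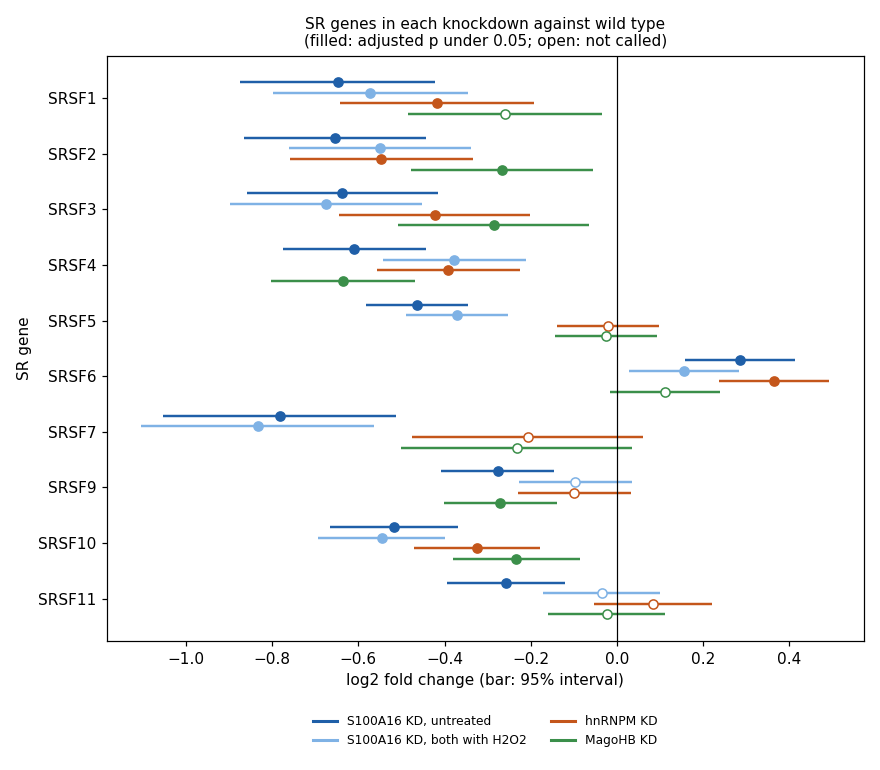
Log2 fold change of each SR gene against WT for the S100A16 KD without and with H2O2, the hnRNPM KD and the MagoHB KD; bars are 95% intervals, filled points have an adjusted p under 0.05. SRSF6 lies right of 0 in all 4 and is open in the MagoHB KD, and SRSF7 is furthest left in both S100A16 KD comparisons, at -0.78 and -0.83.

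Tested directly against each other, the S100A16 KD had 6 SR genes lower than the hnRNPM KD (SRSF4, SRSF5, SRSF7, SRSF9, SRSF10 and SRSF11) and 0 higher, where 48.8% of all genes were called (24.2% lower, 24.6% higher). It had 7 lower than the MagoHB KD (all but SRSF4, SRSF6 and SRSF9) and SRSF6 higher by 0.18, where 44.8% of all genes were called (21.7% lower, 23.2% higher). Between the hnRNPM and MagoHB KDs, SRSF4 (0.24), SRSF6 (0.25) and SRSF9 (0.17) were higher in the hnRNPM KD and SRSF2 lower (-0.28), where 44.5% of all genes were called (22.3% higher, 22.2% lower). SRSF6 was called in this contrast in all 6 fits that left out 1 of its libraries. SRSF4 was called in 4 of them, SRSF2 in 3 and SRSF9 in 2, and the libraries of the 2 KDs overlapped for these 3 genes. A fit to the libraries of these 2 KDs alone called 0 of the 10, where 33% of all genes were called. Among the other calls, libraries overlapped for SRSF4 and SRSF9 in S100A16 against hnRNPM, and for SRSF1 in S100A16 against MagoHB. The 6 of 10 called for S100A16 against hnRNPM, and 4 of 10 for hnRNPM against MagoHB, are near the shares of all genes. By total counts without TMM, SRSF6 was still higher and 4 genes were lower in the hnRNPM KD than in the MagoHB KD. For S100A16 against hnRNPM, 3 genes were called by total counts, and also without hnRNPM KD 1 or without hnRNPM KD 2. In the same order, 48.4%, 43.2% and 42.4% of all genes were called.

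Under H2O2, 7 SR genes were lower in the S100A16 KD than in WT (SRSF1, SRSF2, SRSF3, SRSF4, SRSF5, SRSF7 and SRSF10) and SRSF6 was higher, where 52.5% of all genes were called (24.7% lower, 27.9% higher). The median log2 fold change of the 10 was -0.46, and 0.06 for all genes. SRSF9 (-0.10, edgeR adjusted p = 0.209) and SRSF11 (-0.04, adjusted p = 0.677) were not called. SRSF11 stood at 571, 552 and 539 CPM in WT with H2O2 and at 559, 547 and 516 CPM in the KD with H2O2, and the groups overlapped. SRSF4 stood at 452, 465 and 457 CPM in WT with H2O2 and at 365, 351 and 343 CPM in the KD, a fall of 0.38 on the log2 scale.

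No SR gene was called for H2O2 itself. In WT 0 of 10 were called (edgeR; 1 at an unadjusted p under 0.05; 0 by DESeq2 and 0 by limma-voom), where 0.223% of all genes were called. The 3 libraries of each group did not overlap for 5 of the 10, all higher with H2O2, next to 9.13% of all genes in that direction. In the S100A16 KD 0 of 10 were called (4 at an unadjusted p under 0.05; 0 by limma-voom; 1 by DESeq2, SRSF5 with adjusted p = 0.0462), where 0.0134% of all genes were called. There 8 of 10 were higher without overlap, next to 12.4% of all genes. A fit to only the 6 libraries of each comparison called SRSF6 (0.17) and SRSF7 (0.17) higher in WT, and SRSF2 (0.17), SRSF4 (0.20), SRSF5 (0.19) and SRSF9 (0.15) higher in the KD. The share of all genes called was also larger in those fits, at 2.8% in WT and 3.89% in the KD. The main fit pooled the spread over all groups, which include hnRNPM KD 3 and MagoHB KD 2. Without S100A16 KD 1, hnRNPM KD 3 and MagoHB KD 2 the member counts were again 2 and 4, where 1.84% and 1.61% of all genes were called.

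SRSF5 was at 281, 286 and 274 CPM in the untreated KD and at 320, 325 and 323 CPM after H2O2, every treated library being higher (0.20, interval 0.08 to 0.32). SRSF4 was at 313, 299 and 302 CPM before and at 365, 351 and 343 CPM after (0.21, interval 0.05 to 0.38), again without overlap. In WT the SRSF4 difference was -0.02 (interval -0.19 to 0.15) and that of SRSF5 0.11 (interval -0.01 to 0.23). The difference between the KD and WT in the response to H2O2 was called for 0 of 10 SR genes (edgeR; 1 at an unadjusted p under 0.05, SRSF11; 0 by DESeq2), where 0.0938% of all genes were called. It was 0.22 for SRSF11 (interval 0.03 to 0.41), 0.23 for SRSF4 (interval -0.0023 to 0.47) and -0.13 for SRSF6 (interval -0.31 to 0.05). The fit to these 12 libraries called SRSF4 and SRSF11, where 1.19% of all genes were called.

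**Figure D4:**
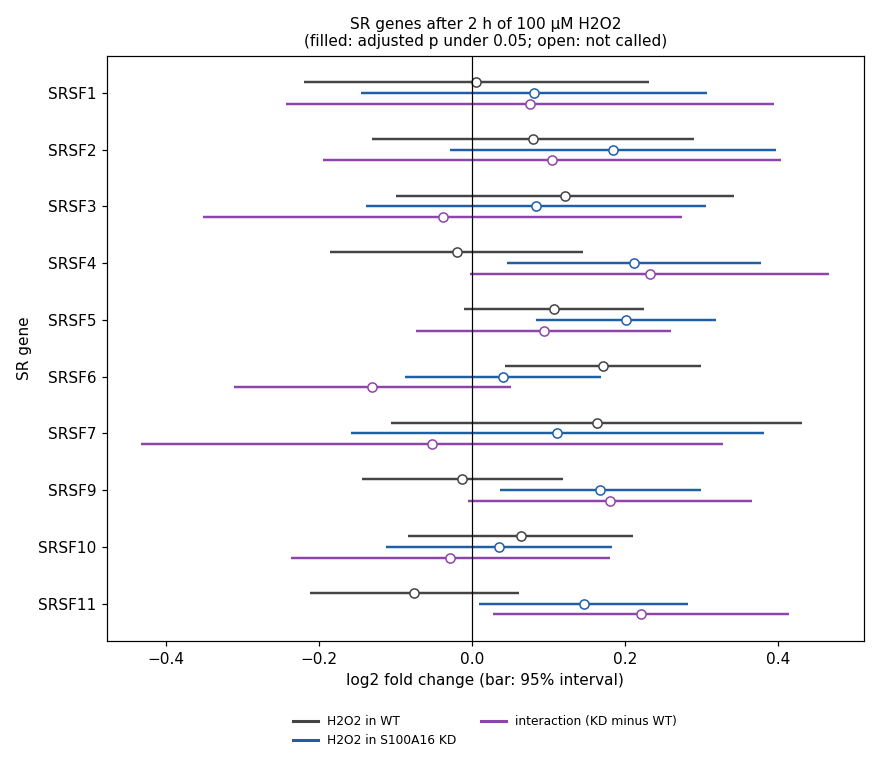
Log2 fold change of each SR gene after 2 h of 100 µM H2O2 in WT and in the S100A16 KD, and the difference between those responses; bars are 95% intervals and no point is filled, since 0 of 10 genes were called in each. All 10 points for the KD lie right of 0, up to 0.21 for SRSF4, whereas SRSF1 lies at 0.01 and SRSF4, SRSF9 and SRSF11 lie left of 0 in WT.

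Over the 18 libraries, SRSF1, SRSF2, SRSF3, SRSF7 and SRSF10 had much the same pattern. Pearson's r of log2 CPM between SRSF1 and SRSF3, SRSF1 and SRSF10, and SRSF3 and SRSF10 was 0.978 each, and the lowest among these 5 genes was 0.873 (SRSF2 and SRSF7). SRSF4 and SRSF9 were alike at 0.927. SRSF6 had a negative r with each of the other 9, from -0.558 with SRSF2 to very weak values with SRSF9 (-0.066) and SRSF11 (-0.0575). The libraries fall into 6 groups, which these values share with the TMM factors, so they describe the pattern across groups together with differences within groups. Within groups, hnRNPM KD 3 and MagoHB KD 2 were both low for SRSF1, SRSF2, SRSF3 and SRSF7. The deviations of these libraries from their group means, over many genes, correlated at 0.332. Of 10039 genes with a symbol and a mean of at least 5 CPM, those most like SRSF1 were SPC24, AURKB and PLK4 (0.984 to 0.988), and those most like SRSF10 were PAICS, PLK4 and TRA2B (0.988 to 0.993). Those most like SRSF11 were RBM25, IWS1 and PNISR (0.904 to 0.922), and those most like SRSF6 were AMDHD2, ZIC5 and SOCS3 (0.874 to 0.877).

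**Figure D5:**
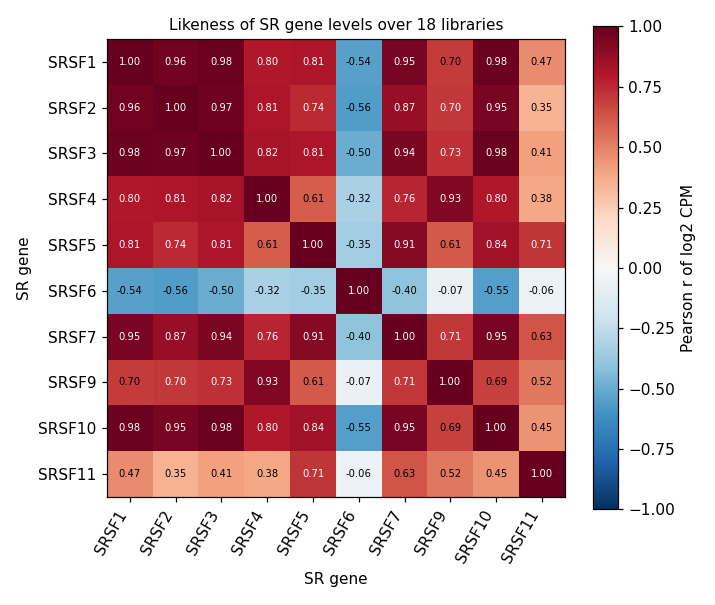
Pearson's r of log2 CPM between each pair of SR genes over 18 libraries, from -1 (blue) to 1 (red). SRSF1, SRSF2, SRSF3, SRSF7 and SRSF10 are alike at 0.873 or above. The SRSF6 row is negative against the other genes, from -0.558 to very weak values with SRSF9 (-0.066) and SRSF11 (-0.0575).

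Genes that work with SR proteins were read in the same fits, in which 24.8% of all genes were called lower and 27.6% higher in the untreated S100A16 KD, 23.8% and 25.4% in the hnRNPM KD, and 22.3% and 23.3% in the MagoHB KD. Of 8 import and export genes, 8 were lower in the untreated S100A16 KD (5 by total counts without TMM), among them ALYREF (-0.98) and NXT1 (-0.95), an adaptor and a cofactor of the export receptor NXF1. TNPO3, the transportin that imports SR proteins, was at -0.97 in the MagoHB KD (edgeR adjusted p = 7.19e-10). Mean TNPO3 was 94.8 CPM in untreated WT, and 52.5, 79.9 and 48.3 CPM in the untreated S100A16, hnRNPM and MagoHB KDs. In the MagoHB KD 4 of the 8 were lower and 0 higher (2 and 1 by total counts). The hnRNPM KD had 5 of the 8 lower and 2 higher (3 and 2 by total counts). The list of 31 SR-related and partner genes includes SRSF8 and SRSF12. Of the 31, 23 were lower and 3 higher in the untreated S100A16 KD, SRSF8 and SRSF12 being among the 3. In the hnRNPM KD 7 were lower and 9 higher, and in the MagoHB KD 12 and 3. The 16 and 15 of 31 called in the hnRNPM and MagoHB KDs are near the 49.1% and 45.5% of all genes called there. Total counts gave 16 and 7, 6 and 14, and 8 and 11. Their median log2 fold changes were -0.39, 0.01 and -0.10, next to 0.06, 0.02 and 0.04 for all genes. Without sign, their medians were 0.394, 0.189 and 0.142, next to 0.446, 0.416 and 0.373 for all genes. U2AF1, the splice-site factor that SR proteins help to place, and SNRNP70, a U1 protein with an RS-like domain, were at -0.80 and -0.81 in the S100A16 KD, and SCAF11 at -1.02 in the MagoHB KD. Counts of U2AF1 are uncertain, since GRCh38 holds a near-identical copy of the gene.

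Of 9 kinase genes, 5 were lower and 1 higher in the untreated S100A16 KD (1 lower and 3 higher by total counts), 2 and 2 in the hnRNPM KD (1 and 2), and 3 and 1 in the MagoHB KD (1 and 4). The 4 of 9 called in each of the hnRNPM and MagoHB KDs are near the 49.1% and 45.5% of all genes. The kinases' median log2 fold changes were -0.22, -0.06 and -0.04 in the 3 KDs. PRPF4B was at -0.53 in the S100A16 KD and CLK3 at 0.39 in the hnRNPM KD. CLK1 and CLK4, kinases of the RS domain, fell after H2O2 in WT by 0.78 and 0.64 on the log2 scale (edgeR adjusted p = 9.01e-08 and 1.28e-06). In the S100A16 KD their changes after H2O2 were 0.16 and -0.11, and neither was called. CLK1 was at 78.4 to 82.6 CPM in untreated WT and 45.1 to 48.4 CPM in WT with H2O2, against 59.1 to 67.8 and 70.2 to 73.2 CPM in the KD. The responses of the KD and WT differed by 0.94 for CLK1 and 0.52 for CLK4, both called (edgeR adjusted p = 4.67e-06 and 0.00775), where 0 SR genes and 0.0938% of all genes were called. Of 10 nonsense-mediated decay factors, 6 were lower and 0 higher in the untreated S100A16 KD (4 and 3 by total counts), among them SMG6 (-0.85). In the hnRNPM and MagoHB KDs 3 were lower and 2 and 3 higher, with UPF3A at 0.53 and 0.50, and the 5 and 6 of 10 called there are near the share of all genes called. The median log2 fold changes of the 10 factors were -0.39, -0.05 and -0.06 in the 3 KDs. By total counts 2 were lower and 3 higher in the hnRNPM KD, and 0 lower and 4 higher in the MagoHB KD. SRSF8 and SRSF12, family members outside the 10 and already counted among the SR-related genes, were low, at 7.06 to 12.5 and 2.94 to 8.93 CPM. Like SRSF6, both were called higher in the untreated S100A16 KD (0.35 and 0.36, edgeR adjusted p = 0.0189 and 0.0123). SRSF12 was also called higher in the hnRNPM KD (0.37, edgeR adjusted p = 0.0114), and was at 49.9% of WT in the MagoHB KD (edgeR adjusted p = 9.68e-07).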

How the data were processed

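Poly(A) mRNA was sequenced from 18 A549 libraries in 6 groups of 3, grouped by the labels alone. Raw counts per gene, with exon lengths, were deposited by the authors beside RPKM values made from them: 100% of 531539 values above 0 equalled counts over length and total counts within a relative tolerance of 0.001. The submitters' processing notes name GRCh38 and, among tools, DESeq2 1.32.0, StringTie 2.1.4, HISAT2 2.2.1, SAMtools 1.15.1 and FastQC 0.11.9. The sources used here do not give the counting program, its annotation or its strand setting. Of counts from 1 to 19, 18.6% to 22% were odd in a given library, and a pair may thus have been counted as 2 reads, so halved counts were tried. There were 0 unused per-sample columns.

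The test was edgeR 4.0.16 in R 4.3.3: robust quasi-likelihood F test, TMM scaling, filterByExpr (22382 genes kept), 1 mean per group over all 18 libraries, Benjamini-Hochberg over all genes tested, threshold 0.05. All 10 contrasts were fitted on the whole table and the SR rows read from it. Fold changes are log2, with 95% intervals. Levels are TMM-scaled CPM within a gene and RPKM between genes. The test was also run on simulated counts with the same spread for every gene and no libraries that stand apart. Those settings differ from these data, which hold such libraries. Alternatives were total counts, RLE factors, no filter beyond 1 count, halved counts, a replicate block, DESeq2 1.42.0, limma-voom (limma 3.58.1), limma on log2(RPKM + 0.5) and log2(RPKM + 0.1), the compared libraries alone, and leaving out each library. Leaving out S100A16 KD 1, hnRNPM KD 3 and MagoHB KD 2 together was chosen after seeing the data.

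All 10 SR genes are named. From each partner list and comparison, the rule allowed up to 2 called genes in each direction with the largest changes, a mean of at least 5 CPM and groups that do not overlap, and for each SR gene the 3 most alike by Pearson's r of log2(CPM + 0.5). The members and lists were chosen with earlier results of these data known. Promoters are from RefSeq (GRCh38.p14), matched by symbol for 9 of 10 genes.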

Additional observations from a re-analysis of the deposited data

Results flagged for a closer look

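The response to H2O2 differed between the S100A16 KD and WT, by a test of the difference itself, for CLK1 (0.94 on the log2 scale, SE 0.0878, edgeR adjusted p = 4.67e-06) and CLK4 (0.52, SE 0.0865, adjusted p = 0.00775). Both were lower in all 3 WT libraries with H2O2 than in all 3 untreated WT libraries. In the KD, CLK1 was higher and CLK4 lower with H2O2 without overlap, and neither change was called. By total counts without TMM the differences were 0.89 and 0.47, both called. Among the 10 SR genes, 0 were called in this test.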

How the results depend on the processing

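Of 1760 refitted log2 fold changes of the 10 SR genes over 10 comparisons, 1607 kept their direction and their side of the threshold, 88 lost a call, 56 gained one and 9 reversed; 53 of the 1607 changed sign between values not called in either fit. The 9 came from total counts, log2(RPKM + 0.5) and log2(RPKM + 0.1), none of which uses TMM, in that order: SRSF11 in the S100A16 KD under H2O2 at 0.149, 0.147 and 0.148, SRSF5 in the MagoHB KD at 0.183, 0.182 and 0.183, and SRSF11 in the MagoHB KD at 0.186, 0.184 and 0.185. The same 3 settings gave 3 called genes for the S100A16 against the hnRNPM KD in place of 6, where they called 48.4% to 49.5% of all genes. DESeq2 called 1 gene for H2O2 in the S100A16 KD in place of 0, where it called 0.834% of 7192 genes.

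With the compared libraries alone, 2 SR genes were called for H2O2 in WT, 4 for H2O2 in the S100A16 KD, 2 for the interaction, 2 for the MagoHB KD against WT in place of 5, 5 for the S100A16 against the MagoHB KD in place of 8, and 0 for the hnRNPM against the MagoHB KD in place of 4. The share of all genes called also fell, from 45.5% to 40.3% for the MagoHB KD against WT. It went from 44.8% to 39.9% for the S100A16 against the MagoHB KD. For the hnRNPM against the MagoHB KD it went from 44.5% to 33%. With 3 libraries left out together the counts were 2 for H2O2 in WT, 4 for H2O2 in the S100A16 KD, 1 for the interaction and 8 for the hnRNPM against the MagoHB KD. There 0.839% of all genes were called for the interaction and 47% for the hnRNPM against the MagoHB KD. The cause was not tested. Leaving out 1 library gave 3 to 6 called for the MagoHB KD against WT, 3 to 8 for the S100A16 against the hnRNPM KD, and 2 to 5 for the hnRNPM against the MagoHB KD, with 2 without hnRNPM KD 2 or without MagoHB KD 3. In the same order, 38.7% to 45.1%, 42.4% to 47.2% and 38.1% to 45.1% of all genes were called. In every fit that left out 1 library, the count of SR genes stayed 10 for the S100A16 KD untreated and 0 for both H2O2 effects and the interaction.

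Same-numbered libraries deviated together, with r over 0.1, in 1 of 45 pairs (-0.153 to 0.224), so no pairing by number was seen. The labels do not say whether the numbers mark a shared culture or day. With the replicate block, all 100 fold changes kept their call, and 10, 8, 6 and 5 genes were called in the S100A16 KD untreated and under H2O2, the hnRNPM KD and the MagoHB KD. TMM-scaled CPM per kilobase gave untreated WT levels above the RPKM, such as 134 against 123 for SRSF1, with the 10 genes in the same order over all libraries. Knockdown lines and WT were not matched by a vector control, and 3 libraries per group limit the precision.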
